A study of Mus musculus with 8 samples.

Results

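The genes described here bind fatty acids in the cytosol, carry them into mitochondria and start their oxidation. In mouse testis labelled as lacking both telomerase RNA and Ku86, Cpt1a signal averaged 151.0 ± 24.9 (SD, n = 2 arrays), against 22 ± 14.6 in wild type (SD, n = 2). The Ku86 label goes against the signal of Xrcc5, the gene of Ku86, which was higher under that label, so genotypes are named here by their labels. Fabp5 was low on 1 of the 2 double knockout arrays, at 34.4, and stood at 302.5 on the other, against 191.8 and 497.4 in wild type. Fabp9 and Cpt2 overlapped between the double knockout and wild type, and Fabp3 was highest in the double knockout without passing the test. Acadm was over the floor set for background on both double knockout arrays and on no wild type array.

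The set holds 9 mouse gene symbols chosen by name: Cpt1a, Cpt1b, Cpt2, Fabp3, Fabp5, Fabp9, Acadl, Acadm and Acadvl. Probe sets annotated to 8 of the 9 symbols were used, 11 probe sets in all, out of 8252 genes with a probe set of their own, and Cpt1b was not analysed here. Cpt1a and Fabp5 entered the set because they stood far from wild type in the double knockout. Their levels are therefore given as a description, without a test, in every comparison that uses the double knockout or wild type. Where they enter a count of calls, a count of groups that do not overlap, or a median, nothing is read from them. Of the 11 probe sets, 6 passed the filter on low signal and were tested, from 5 genes, and 5 did not. The tested probe sets were those of Cpt1a, Fabp5 and Fabp3, 1 of the 2 of Cpt2, and both of Fabp9. Cpt1a passed the filter of 38.1 through the double knockout arrays: its geometric mean was 51.7 over all 8 arrays and 36.2 over the 6 others, so it is given without a test in the remaining comparison too.

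Long-chain fatty acids are held in the cytosol by fatty acid binding proteins and are coupled to coenzyme A before use. Carnitine palmitoyltransferase 1 (CPT1) on the outer mitochondrial membrane turns the acyl-CoA into an acylcarnitine, a step blocked by malonyl-CoA. A carrier moves it across the inner membrane, where CPT2 restores the acyl-CoA, and acyl-CoA dehydrogenases of different chain length preference then take the first step of beta-oxidation. In the testis, Sertoli cells take up lipid from residual bodies and dying germ cells and oxidise it, while Fabp9 is a product of spermatids.

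RNA from testis was hybridised to Affymetrix MG_U74Av2 arrays, 2 for each of 4 genotypes. The double knockout was labelled Ku86(-/-);G3-Terc(-/-), from mice of the third generation (G3) without Terc, the RNA of telomerase. The Ku86 knockout was Ku86(-/-);Terc(+/+), the Terc knockout was Ku86(+/+);G3-Terc(-/-), and wild type was labelled as carrying both genes. Strain, age and the targeted alleles are not given in the sources used here.

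Several facts of the arrays touch every value below. Median signal per array lay between 49.7 and 73 in arbitrary units, and between 15.6% and 26.0% of probe sets were at or under a floor of 11.8, so the 8 arrays limit the precision. Double knockout replicate 1 was a pool of 3 mice, per the scanner records, which name germ cells as the source of all 8 arrays where the labels name testis, and no pool size was recorded for the other 7. The first replicate of the double knockout and that of the Ku86 knockout were scanned on day 1, that of wild type on day 3, and the other 5 arrays on day 2. The chip lots followed the 3 scan days exactly. Scan day 2 alone thus holds 1 array each of the double knockout, the Ku86 knockout and wild type. A block for scan day takes up wild type replicate 1, so wild type then rests on replicate 2. Wild type replicate 1 was a repeated hybridisation, per the scanner records, and had the lowest median signal, 49.7, and the most probe sets under the floor, 26.0%. All 10 elongating spermatid markers were on the array and summed to between 73284 and 86241. Somatic markers were present too, with Clu and Aard leading the 14 Sertoli cell markers. Xrcc5, which encodes Ku86, went against its labels: its tested probe set read between 259.0 and 458.8 on the 4 arrays labelled Ku86(-/-), against 11.1 to 75.6 on the 4 labelled Ku86(+/+). Its other probe set was at or under 3.4 on all 8 arrays, and where the probes lie in the transcript was not examined. Nothing says that the 2 arrays of a genotype came from separate animals, so the p-values measure only the spread between these arrays, which may be technical. In bulk tissue, fewer cells of a type and less RNA per cell cannot be told apart.

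Promoters of 6 of the 9 genes were in the RefSeq promoter table of build GRCm38.p6, and the 250 bases before the annotated start are used here. Shown are those of Cpt1a and Acadm, the genes furthest over wild type in the double knockout, and of Cpt2, whose signal was steady. The differences of Cpt1a and Acadm carry no test. Capitals mark matches, on either strand, to the nuclear receptor half-site AGGTCA, the CCAAT box CCAAT, the GC box GGGCGG and the TATA box TATAAA, all chosen with the sequences in view. Each is written 5′ to 3′ on the gene's strand. Cpt1a lies on the plus strand at chr19:3323051-3323300, Acadm on the minus strand at chr3:153944644-153944893 and Cpt2 on the minus strand at chr4:107923590-107923839.
Cpt1a: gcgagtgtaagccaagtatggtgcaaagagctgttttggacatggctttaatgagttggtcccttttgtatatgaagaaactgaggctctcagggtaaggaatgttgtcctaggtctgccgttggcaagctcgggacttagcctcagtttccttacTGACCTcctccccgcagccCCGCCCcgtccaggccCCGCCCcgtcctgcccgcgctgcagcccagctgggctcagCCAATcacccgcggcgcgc
Acadm: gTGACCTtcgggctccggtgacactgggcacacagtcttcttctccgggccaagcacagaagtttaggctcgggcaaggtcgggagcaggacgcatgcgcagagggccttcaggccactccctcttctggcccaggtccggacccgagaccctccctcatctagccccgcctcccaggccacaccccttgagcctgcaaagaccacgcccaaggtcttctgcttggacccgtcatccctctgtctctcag
Cpt2: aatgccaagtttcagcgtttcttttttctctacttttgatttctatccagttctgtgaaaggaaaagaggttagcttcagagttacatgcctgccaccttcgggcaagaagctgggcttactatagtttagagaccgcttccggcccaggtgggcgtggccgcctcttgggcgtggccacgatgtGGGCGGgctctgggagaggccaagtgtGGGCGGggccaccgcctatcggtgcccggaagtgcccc

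The Cpt1a stretch held 1 half-site, on the reverse strand, with its first base 94 bases before the start, 2 GC boxes at 75 and 59 bases before it, also reversed, and a CCAAT box at 19. Acadm held 1 reversed half-site, at 249 bases before the start, and Cpt2 held 2 GC boxes, at 65 and 38. A half-site was also present in Acadvl, at 87 bases before the start, whereas Acadl held 4 GC boxes and Fabp3 none of the motifs. These motifs are common: of 32851 promoters of the same length, 14.0% held a half-site, 33.8% a CCAAT box, 32.7% a GC box and 12.4% TATAAA. The paired half-site AGGTCANAGGTCA, the form bound by PPAR with RXR, was in 0.0335% of promoters and in none of the 6 windows. A match of letters is a description of the window and not a binding site.

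Fatty acid binding proteins were taken first. Fabp5, a binding protein of epidermis, fat and many other tissues, read 34.4 and 302.5 in the double knockout, 326.1 and 496.9 in the Ku86 knockout, 397.8 and 693.1 in the Terc knockout, and 191.8 and 497.4 in wild type. Double knockout replicate 1 was the lowest of the 8 arrays, and replicate 2 lay between the wild type arrays, so these groups overlapped. Both double knockout arrays lay under both arrays of each single knockout. The log2 difference of the double knockout from wild type was -1.60 ± 0.77 (SE), with means of 168.0 ± 190.0 and 345.0 ± 216.0 (SD, n = 2 each). It rested on 1 array: without double knockout replicate 1, an array of scan day 1, it was -0.03, and without replicate 2 it was -3.17. The arrays of scan day 2 gave -0.72, and blocking on scan day gave -1.35. In both, wild type rested on replicate 2 alone.

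In the single knockouts Fabp5 differed from wild type by 0.38 ± 0.77 (Ku86) and 0.77 ± 0.77 (Terc; SE, log2), and these 3 groups overlapped. Without wild type replicate 1 the values were -0.31 and 0.08. The difference of differences between the 4 genotypes was -2.75 ± 1.09 (SE), and -1.18 without double knockout replicate 1. The comparison of Ku86 with Terc knockout did not use the arrays for which Fabp5 was chosen. There the difference was -0.38 ± 0.77 (SE) and did not pass (limma, adjusted p = 1.0), and it turned to 0.55 with scan day as a block and to 0.02 without Terc knockout replicate 2. Whether the probe set also reads related copies of Fabp5 was not examined.

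Fabp9, the binding protein of spermatids, also known as PERF15 of the sperm perforatorium, had 2 tested probe sets. The first, of the type marked _f_at, read 8278.5 and 9025.6 in the double knockout, 9057.6 and 9043.1 in the Ku86 knockout, 9795.5 and 8929.0 in the Terc knockout, and 8054.0 and 9961.5 in wild type. The arrays ran close together, and the double knockout overlapped wild type with a log2 difference of -0.05 ± 0.15 (SE; limma, adjusted p = 0.974). The second read 3064.5 and 4299.1 in the double knockout, 1693.4 and 3181.7 in the Ku86 knockout, 2214.3 and 2692.5 in the Terc knockout, and 2014.8 and 4029.3 in wild type. It was spread more widely within each genotype, and the double knockout lay 0.35 ± 0.34 over wild type on the log2 scale (SE; limma, adjusted p = 0.846). That value lay between -0.15 and 0.85 over the alternatives, the ends coming without wild type replicate 1 and without replicate 2, and that of the first probe set between -0.32 and 0.10. Over the 8 arrays the probe sets correlated with each other at r = 0.27, as a description. The mark on the first stands for probes that may be shared with related sequences.

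Fabp3, the heart and muscle form, read 277.2 and 161.0 in the double knockout, 83.1 and 130.8 in the Ku86 knockout, 141.1 and 158.1 in the Terc knockout, and 96.0 and 137.0 in wild type. Both double knockout arrays were over every array of the other genotypes, replicate 2 by a small margin, the Ku86 knockout overlapped wild type, and both Terc knockout arrays lay over both of these groups. The log2 difference from wild type was 0.88 ± 0.35 (SE) and did not pass over all probe sets (limma, adjusted p = 0.501; unadjusted p = 0.0287). It was 0.49 without double knockout replicate 1 and 0.23 within scan day 2. Against the Ku86 knockout the double knockout was higher by 1.02 ± 0.35 (limma, adjusted p = 1.0), and against the Terc knockout by 0.50 ± 0.35 (limma, adjusted p = 0.99). Within scan day 2 these were 0.30 and 0.11, and without double knockout replicate 1 they were 0.63 and 0.11.

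Averaged over Ku86 genotypes, Fabp3 averaged 184.0 on the arrays labelled Terc(-/-), against 112.0 on those labelled Terc(+/+) (means of 4 arrays each). All 4 arrays labelled Terc(-/-) lay over the other 4, which 1.55% of tested probe sets also did. The log2 difference of 0.70 ± 0.25 (SE) did not pass (limma, adjusted p = 0.904) and was 0.21 within scan day 2. Skeletal muscle markers, read because Fabp3 is a muscle form, summed to 392 and 474 in the double knockout, 505 and 353 in the Ku86 knockout, 411 and 527 in the Terc knockout, and 353 and 373 in wild type, with all 9 markers on the array. The sums overlapped between the Terc labels. Acta1, the skeletal muscle actin, was at or under 8.1 on all arrays, whereas Tnnc2, a fast troponin, read 65.5 to 164.9, Mylpf, a fast myosin light chain, 65.3 to 129.3, Ckm, muscle creatine kinase, 25.4 to 106.0 and Myog, a muscle transcription factor, 33.0 to 100.3. The part of muscle in the Fabp3 values was not tested.

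**Figure D1:**
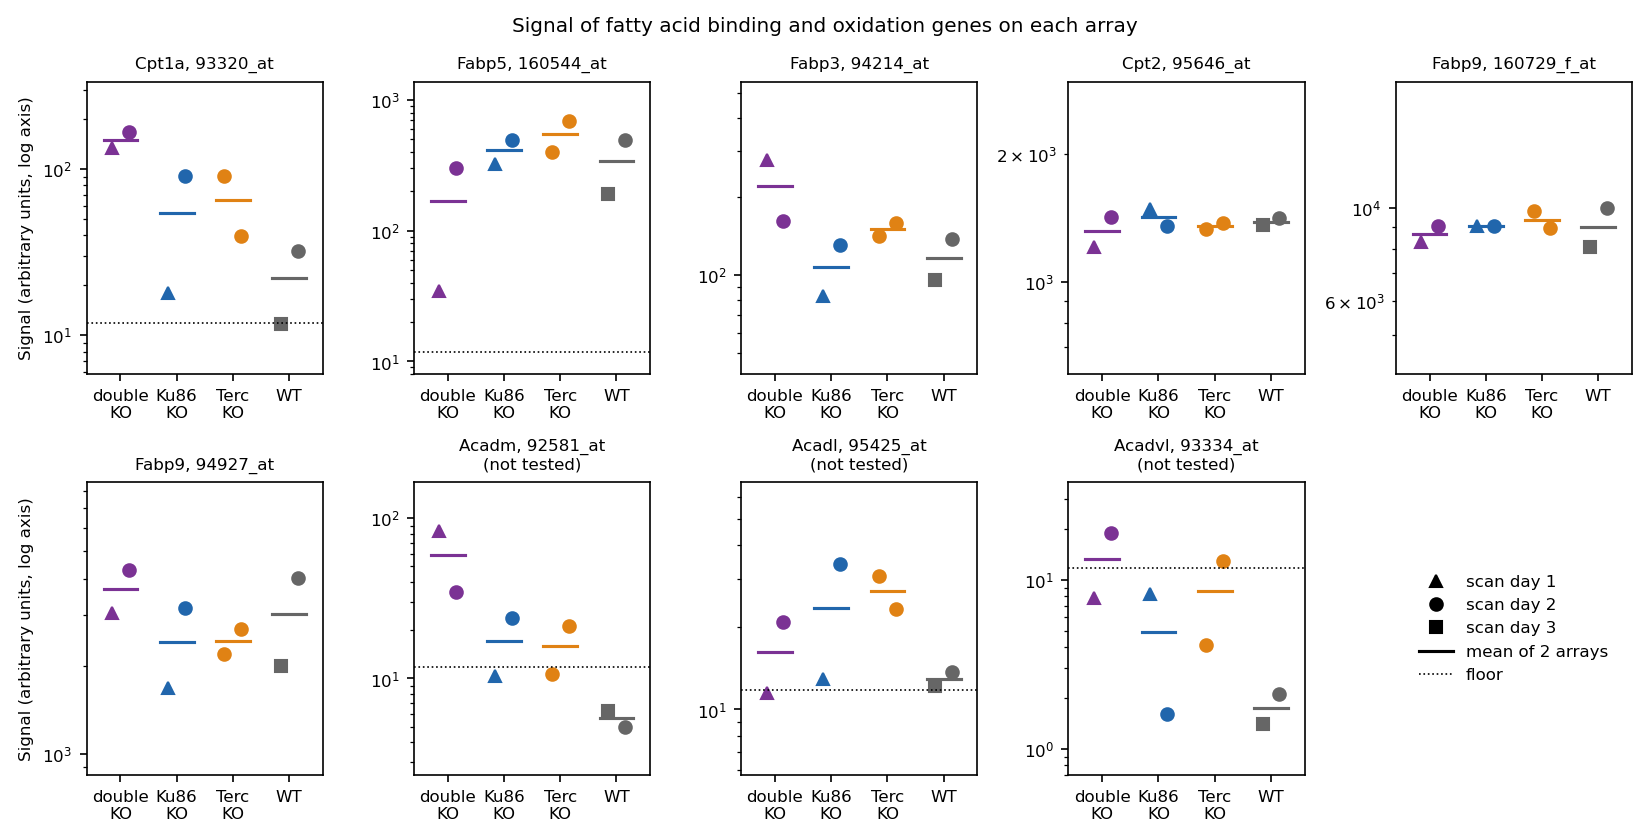
Signal of the fatty acid binding and oxidation genes on each array (arbitrary units, log axis), with 1 panel for each probe set except the 2 that stayed under the floor on all arrays. Points are arrays, shapes are scan days, bars are means of 2 arrays and the dotted line is the floor of 11.8; Cpt1a is highest on the double knockout arrays, at 133.2 and 168.4, and Fabp5 is low on 1 of them, at 34.4.

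Carnitine palmitoyltransferases came next. Cpt1a, the liver form of CPT1 and the rate-setting step of mitochondrial entry, read 133.2 and 168.4 in the double knockout, 17.9 and 90.8 in the Ku86 knockout, 91.2 and 39.9 in the Terc knockout, and 11.7 and 32.4 in wild type. Both double knockout arrays lay over all 6 others, and both Terc knockout arrays lay over both wild type arrays. The Ku86 knockout overlapped wild type and the Terc knockout. Wild type replicate 1 was just under the floor of 11.8.

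The log2 difference of Cpt1a from wild type was 2.94 ± 0.76 in the double knockout, 1.04 ± 0.76 in the Ku86 knockout and 1.63 ± 0.76 in the Terc knockout (SE, n = 2 arrays each), all as a description. In the double knockout, blocking on scan day gave 2.88 and the arrays of scan day 2 gave 2.38. In both, wild type rested on replicate 2 alone, and scan day 2 set 1 array against 1. Leaving out wild type replicate 1, the array at the floor, gave 2.21. Over the alternatives it lay between 1.97 and 3.67. The double knockout was higher than the Ku86 knockout by 1.89 ± 0.76 and than the Terc knockout by 1.31 ± 0.76 (SE). The first was 0.72 without Ku86 knockout replicate 1, 3.06 without Ku86 knockout replicate 2 and 0.89 within scan day 2, and the second was 0.72 without Terc knockout replicate 2 and 1.98 with scan day as a block. The Terc knockout lay 0.90 over wild type with scan day as a block and without wild type replicate 1, which are the same comparison. The difference was 1.03 without Terc knockout replicate 1 and 0.66 with a floor set at percentile 40. The difference of differences was 0.27 ± 1.07 (SE), small beside its error, and turned to -0.90 without Ku86 knockout replicate 1.

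The Ku86 knockout value for Cpt1a rested on 1 array, being -0.13 without Ku86 knockout replicate 2 and 2.22 without Ku86 knockout replicate 1. Between Ku86 and Terc knockouts Cpt1a differed by -0.58 ± 0.76 (SE, no test). That difference turned to 0.59 on the arrays of scan day 2 and without Ku86 knockout replicate 1, to 0.09 with a block for scan day and to 0.01 without Terc knockout replicate 1. The order of these single knockouts was thus not resolved.

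Cpt2, which restores acyl-CoA inside the mitochondrion, read 1211.2 and 1421.1 in the double knockout, 1484.7 and 1355.8 in the Ku86 knockout, 1334.3 and 1379.4 in the Terc knockout, and 1359.9 and 1414.0 in wild type. All genotypes overlapped, and the double knockout differed from wild type by -0.08 ± 0.18 on the log2 scale (SE; limma, adjusted p = 0.955). The single knockouts differed from wild type by 0.03 ± 0.18 (Ku86; limma, adjusted p = 0.97) and -0.03 ± 0.18 (Terc; limma, adjusted p = 0.969). The second Cpt2 probe set was at or under 7.2 on all arrays, under the floor, and gave no level.

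Acyl-CoA dehydrogenases were near background, and their probe sets were not tested. Acadm, the medium-chain enzyme, read 83.6 and 34.5 in the double knockout, 10.3 and 23.8 in the Ku86 knockout, 10.7 and 21.2 in the Terc knockout, and 6.3 and 5.0 in wild type. Both double knockout arrays were over all others, 1 array of each single knockout was over the floor, and both wild type arrays were under it. Against the floor of 11.8, Acadm was at least 4.55-fold higher in the double knockout than in wild type. The same bound was 1.42-fold for the Ku86 knockout and 1.34-fold for the Terc knockout.

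Acadl, the long-chain enzyme, read 11.5 and 20.9 in the double knockout, 12.9 and 34.0 in the Ku86 knockout, 30.9 and 23.4 in the Terc knockout, and 12.2 and 13.7 in wild type. Only the Terc knockout stood clear of wild type, with a log2 difference of 1.06 ± 0.54 (SE, no test), and all 8 arrays were at or under 34.0. Acadvl, the very-long-chain enzyme, read 7.8 and 18.9 in the double knockout, 8.3 and 1.6 in the Ku86 knockout, 4.1 and 13.0 in the Terc knockout, and 1.4 and 2.1 in wild type on its first probe set. It was over the floor on 1 double knockout and 1 Terc knockout array, and its other probe set was under the floor on all 8, at or under 6.6.

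**Figure D2:**
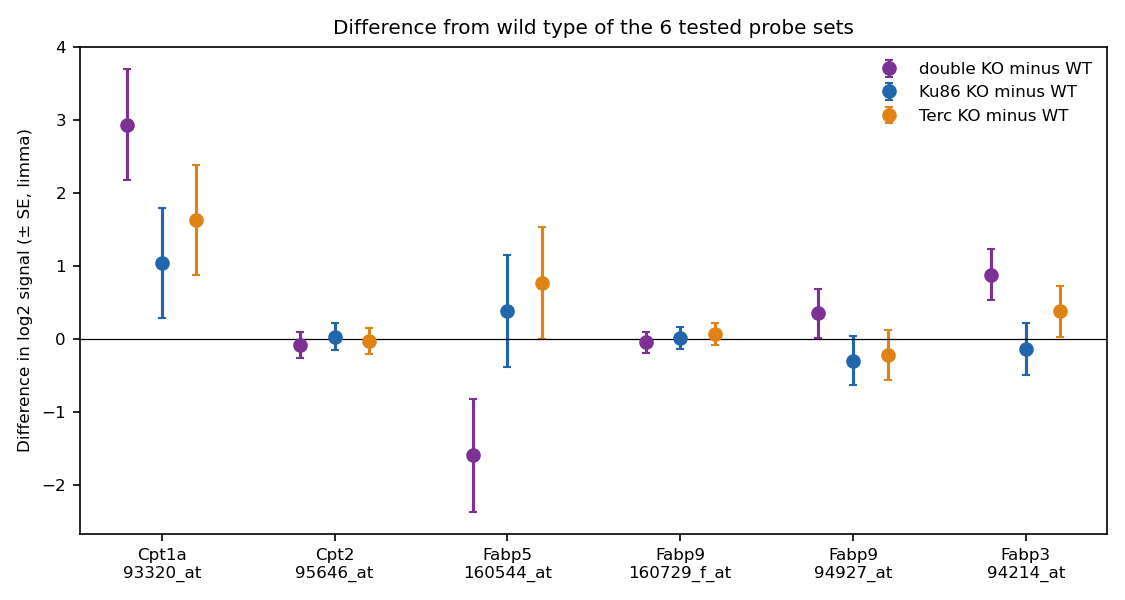
Difference from wild type in log2 signal for the 6 tested probe sets, with 1 point for each genotype and bars of ± SE from limma (2 arrays per genotype). Cpt1a is furthest above 0 in the double knockout, at 2.94, Fabp5 is furthest below, at -1.60, and Cpt2 and the first Fabp9 probe set stay within 0.10 of 0; no test stands behind the points of Cpt1a and Fabp5.

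No probe set of these genes was called, at a limma adjusted p under 0.05 over 7282 probe sets, in any of the 9 contrasts. In the double knockout against wild type the calls were 0 of 6, where limma called 2 probe sets in all, or 0.0275%, and 626 (8.6%) had an unadjusted p under 0.05. Of the 4 probe sets not chosen for this contrast, Fabp3 had the lowest adjusted p, 0.501. Both double knockout arrays lay over both wild type arrays in 2 of the 6, Cpt1a and Fabp3, and under them in 0, against 23.2% and 13.2% of all tested probe sets. Cpt1a was chosen for this difference, so nothing is read from its place in this count. The median difference of the 6 was 0.15, beside 0.075 over all, as a description. Counting the probe sets under the filter too, 4 of 11 were higher without overlap, with Acadm and Acadvl, and 0 lower, against 23.1% and 10.8% of all 12422 probe sets.

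The single knockouts gave the same count of 0. Against wild type the Ku86 knockout had 0 of 6 called (0.0412% over all, or 3 probe sets; 430, or 5.9%, at an unadjusted p under 0.05), a lowest adjusted p of 0.848 for the 4 probe sets not chosen here, and 0 of 6 that did not overlap (24.4% higher and 13.7% lower over all). The Terc knockout had 0 of 6 called (0.0275% over all; 514, or 7.06%, at an unadjusted p under 0.05) and a lowest adjusted p of 0.772. There 2 of 6, again Cpt1a and Fabp3, were higher without overlap and 0 lower (25.5% and 12.2% over all). These 3 comparisons share the wild type arrays.

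Between knockouts, limma called 0 of 7282 probe sets for the double knockout against the Ku86 knockout (0.0%; 245, or 3.36%, at an unadjusted p under 0.05) and 0 against the Terc knockout (0.0%; 310, or 4.26%, at an unadjusted p under 0.05). Against the Ku86 knockout, Cpt1a and Fabp3 were higher without overlap and Fabp5 and the first Fabp9 probe set lower, 2 and 2 of 6 (15.5% and 16.6% over all). Against the Terc knockout, Cpt1a, Fabp3 and the second Fabp9 probe set were higher and Fabp5 lower, 3 and 1 of 6 (15.4% and 17.0% over all). Between Ku86 and Terc knockouts 0 of 6 were called (0.0137% over all; 174, or 2.39%, at an unadjusted p under 0.05), and 1, Fabp3, was lower in the Ku86 knockout without overlap (15.5% over all). The interaction also gave 0 of 6 (0.0% over all; 367, or 5.04%, at an unadjusted p under 0.05). The Ku86 effect averaged over Terc genotypes gave 0 of 6 called (0.0% over all; 375, or 5.15%, at an unadjusted p under 0.05) and 0 of 6 without overlap (1.68% higher and 1.46% lower over all). The Terc effect averaged over Ku86 genotypes gave 0 of 6 called (0.0137% over all; 385, or 5.29%, at an unadjusted p under 0.05) and 1 of 6 higher without overlap, Fabp3, and 0 lower (1.55% higher and 0.714% lower over all).

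**Figure D3:**
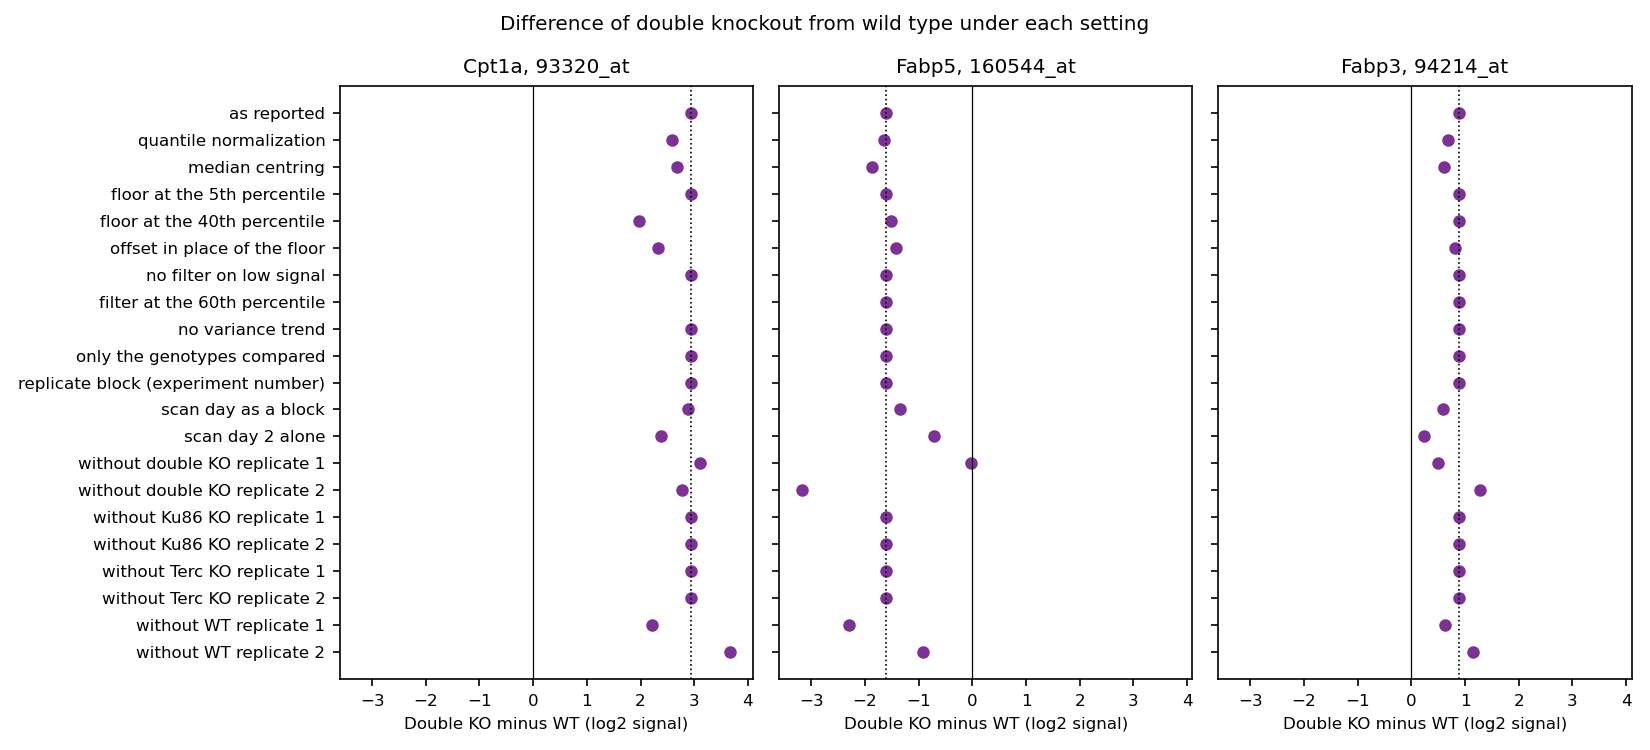
Difference of the double knockout from wild type in log2 signal for Cpt1a, Fabp5 and Fabp3, as reported and under each alternative setting, with a dotted line at the reported value. Cpt1a stays between 1.97 and 3.67 (it was not tested with the filter at the 60th percentile), Fabp5 moves between -3.17 and -0.03 with the 2 double knockout arrays, and Fabp3 lies between 0.23 and 1.27.

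Cpt1a and Fabp5 had unlike courses over the 8 arrays. Probe sets with 1 gene symbol were ranked by their correlation with each gene in log2 signal (6531 candidates, 8 arrays that share genotypes and scan days; a description with no test). Those most like Cpt1a were Cmas (r = 0.995), an enzyme of sialic acid activation; Pgrmc1 (0.99), a heme-binding membrane protein; Gja1 (0.988), the gap junction protein connexin 43; Cpe (0.986), a carboxypeptidase of prohormones; and Hspa8 (0.986), a constitutive chaperone. Without wild type replicate 1, the same 5 held ranks 1 to 5, as they did without double knockout replicate 1. Gja1 read 243.2 and 314.3 in the double knockout, 78.2 and 215.2 in the Ku86 knockout, 202.4 and 158.7 in the Terc knockout, and 64.1 and 124.6 in wild type. In all, 68 candidates correlated with Cpt1a at over 0.9.

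Those most like Fabp5 were Mapk12 (r = 0.976), a p38 kinase; Serf2 (0.961); Slco5a1 (0.953), a member of the organic anion transporter family; Chtop (0.952), a chromatin and mRNA export factor; and Polm (0.95), a DNA polymerase of end joining. Mapk12 read 46.5 and 154.2 in the double knockout, 131.5 and 180.0 in the Ku86 knockout, 186.7 and 179.3 in the Terc knockout, and 112.0 and 167.1 in wild type. Like Fabp5 it was lowest on double knockout replicate 1. Without that array the 5 correlations were 0.849, 0.863, 0.719, 0.721 and 0.702, and none kept a rank among the first 100, so this likeness rested on 1 array. Between Cpt1a and Fabp5 the correlation was -0.23, and between Cpt1a and Fabp3 it was 0.76.

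**Figure D4:**
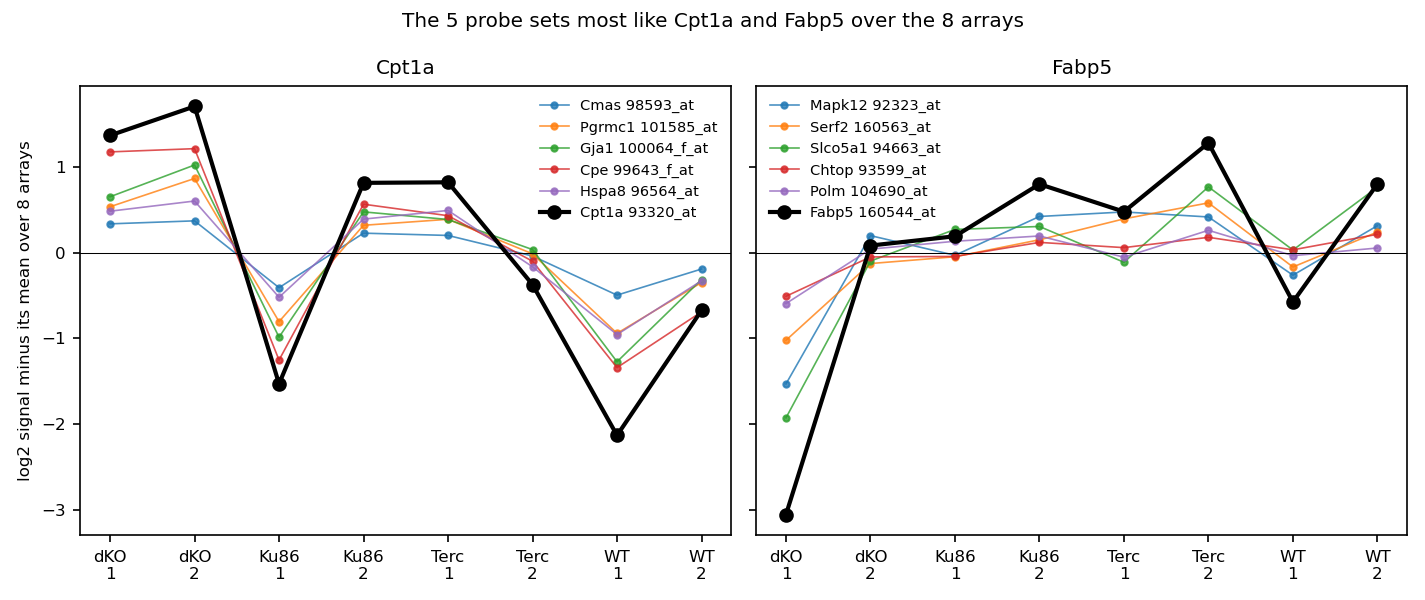
Log2 signal minus its mean over the 8 arrays, for Cpt1a and Fabp5 (black) and the 5 probe sets most like each, by array (dKO is the double knockout). The genes beside Cpt1a are high on both double knockout arrays and low on Ku86 knockout replicate 1 and wild type replicate 1, and those beside Fabp5 share its dip on double knockout replicate 1.

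Marker sums of Sertoli and peritubular cells and of spermatogonia, which are germ cells, were highest in the double knockout, as Cpt1a was. Their correlation with Cpt1a over the arrays was not computed. The labels name testis and the scanner records germ cells, so these sums are not read as the make-up of whole testis. The 14 Sertoli cell markers on the array, of 17 listed, summed to 5475 and 4459 in the double knockout, 2762 and 3956 in the Ku86 knockout, 3673 and 3290 in the Terc knockout, and 2371 and 2373 in wild type. Both double knockout sums were over the 6 others and both wild type sums were under them. Of 13 tested, 12 were higher in the double knockout than in wild type (10 to 13 over the alternatives), with a median log2 difference of 0.90, beside 0.08 over 5530 genes. The 16 peritubular, vascular and matrix markers summed to 3096 and 3498 in the double knockout, 2271 and 2854 in the Ku86 knockout, 2653 and 2962 in the Terc knockout, and 1691 and 1930 in wild type. All 11 tested were higher in the double knockout than in wild type (median 1.09; 10 of 11 after median centring and without wild type replicate 2 or double knockout replicate 1). The 8 spermatogonia markers summed to 1445 and 1156 in the double knockout, 811 and 1015 in the Ku86 knockout, 977 and 1028 in the Terc knockout, and 758 and 764 in wild type, again highest in the double knockout and lowest in wild type without overlap. All 5 tested were higher in the double knockout than in wild type, under every alternative run for lists (median 0.87). Dmrt1 here, Myh11 in the peritubular list and Kitl in the Sertoli list passed the filter on low signal through the double knockout arrays. Nothing is read from their place in these counts and medians. The 7 Leydig cell markers summed to 1800 and 1040 in the double knockout, 794 and 1182 in the Ku86 knockout, 991 and 1544 in the Terc knockout, and 830 and 1006 in wild type. Here 5 of 5 were higher (median 0.51), but 1 of 5 within scan day 2 (median -0.11). Spermatocyte markers had 2 of 5 higher (0 to 4 over the alternatives), with a median of -0.01. Round and elongating spermatid markers had 1 of 8 and 2 of 10 higher, with medians of -0.09 and -0.07. Over the alternatives these counts were 0 to 4 and 1 to 6, the high ends coming after quantile normalization. Round spermatid markers summed to 21117 and 19984 in the double knockout, under both wild type sums, 23310 and 24053. The sums were 22916 and 21191 in the Ku86 knockout and 23507 and 20021 in the Terc knockout. Spermatocyte and elongating spermatid sums overlapped between the double knockout and wild type. None of these lists held a called gene, and the part of these cells in the Cpt1a values was not tested.

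The 6 adipocyte markers on the array, read because fat lies beside the testis and expresses Fabp4 and Fabp5, summed to 984 and 945 in the double knockout, 985 and 956 in the Ku86 knockout, 971 and 1093 in the Terc knockout, and 1351 and 1093 in wild type. Both wild type sums were over both double knockout sums, and the highest was on wild type replicate 1. Lipe alone gave 669.0 of that sum, against 248.9 on wild type replicate 2 and 496.8 and 319.6 in the double knockout. Fabp4, the adipocyte binding protein, was at or under 40.3 on all arrays, Retn at or under 16.3 and Cidec at or under 7.8. Adipoq, Lipe and Lep gave more signal, with means over all arrays of 408.0, 374.0 and 234.0. The part of fat in the Fabp5 values was not tested.

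Other genes of fatty acid metabolism were read from 6 lists, of which limma called 0 members in all 9 contrasts. Among other mitochondrial beta-oxidation genes, 10 of 11 tested were higher in the double knockout than in wild type, with a median log2 difference of 0.50, beside 58.8% of 5530 genes and a median of 0.08. The highest were Eci2, an enoyl-CoA isomerase, at 1.31 ± 0.42 (SE, limma adjusted p = 0.414), and Hsd17b10, a hydroxyacyl-CoA dehydrogenase, at 1.00 ± 0.55 (SE, no test). Hsd17b10 passed the filter on low signal through the double knockout arrays, at 77.8 and 61.3, against 25.4 to 49.4 on the other arrays. Nothing is read from its place in the count. Eci2 read 121.5 and 122.1 in the double knockout, 39.7 and 77.0 in the Ku86 knockout, 66.0 and 72.7 in the Terc knockout, and 54.8 and 44.3 in wild type. The lowest were Acad9, an acyl-CoA dehydrogenase also needed for complex I assembly, at -0.04 ± 0.39, and Ivd, of leucine breakdown, at 0.11 ± 0.35 (SE).

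Against wild type the same list had 7 of 11 higher in the Ku86 knockout (median 0.17) and 9 of 11 in the Terc knockout (median 0.23). In the double knockout its count lay between 8 and 11 and its median between 0.23 and 0.75 over the alternatives run for lists. Without double knockout replicate 1 the median was 0.26, and averaging the probe sets of a gene gave 0.38. The other tested probe sets of Etfb and Acads were at -0.85 and -0.16, where those counted were at 0.52 and 0.23. The low end, 0.23, came from median centring, which moved the median of all genes to -0.19.

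Genes of uptake, activation and carnitine transport did not share this direction, with 1 of 5 tested above 0 in the double knockout against wild type and a median of -0.11. Slc22a5, the carnitine importer, was at 0.33 ± 0.33 and Dbi, the acyl-CoA binding protein, at -0.09 ± 0.22, while Acsl5, an acyl-CoA synthetase, was at -0.23 ± 0.25 and Crat, carnitine acetyltransferase, at -0.12 ± 0.16 (SE, log2). Peroxisomal beta-oxidation had 3 of 5 above 0 and a median of 0.03 (-0.09 after quantile normalization), between Abcd3, a peroxisomal fatty acid transporter, at 1.05 ± 0.43 and Acaa1a, a thiolase, and Acot8, a thioesterase, both at -0.29 (SE 0.35 and 0.28). Scp2, a sterol carrier and thiolase, was at 0.58 ± 0.30. Of the other intracellular lipid-binding proteins only Fabp6, the ileal bile acid binding protein, was tested, at -0.11 ± 0.39.

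PPAR regulators and targets had 3 of 7 above 0 and a median of -0.09, which moved between -0.35 and 0.29 over the alternatives. Pdk4, the kinase that limits pyruvate oxidation, was at 1.15 ± 0.52 and Angptl4, an inhibitor of lipoprotein lipase, at 0.62 ± 0.40, whereas Rxra and Rxrb, partners of PPAR, were at -0.38 ± 0.45 and -0.25 ± 0.29 (SE, log2). Pdk4 read 53.1 and 112.9 in the double knockout, 55.3 and 79.5 in the Ku86 knockout, 66.9 and 41.7 in the Terc knockout, and 27.3 and 44.4 in wild type. Both double knockout arrays were over both wild type arrays.

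Synthesis, storage and lipolysis genes had 8 of 12 above 0 and a median of 0.17, or 5 of 12 and -0.10 after median centring. Elovl5, which lengthens polyunsaturated fatty acids, had the lowest adjusted p of this list: it read 364.6 and 346.3 in the double knockout, 228.1 and 272.5 in the Ku86 knockout, 285.4 and 273.8 in the Terc knockout, and 110.2 and 158.2 in wild type. All 6 knockout arrays were over both wild type arrays, a separation whose share over all probe sets was not computed. Taken singly, 23.2% of tested probe sets were higher without overlap in the double knockout, 24.4% in the Ku86 knockout and 25.5% in the Terc knockout. The Elovl5 difference of the double knockout, 1.43 ± 0.26 (SE), did not pass (limma, adjusted p = 0.131). Scd2, a desaturase, was at 1.13 ± 0.42, and Dgat1, of triglyceride synthesis, and Pnpla2, the fat triglyceride lipase, were at -0.41 ± 0.25 and -0.26 ± 0.21 (SE, log2).

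**Figure D5:**
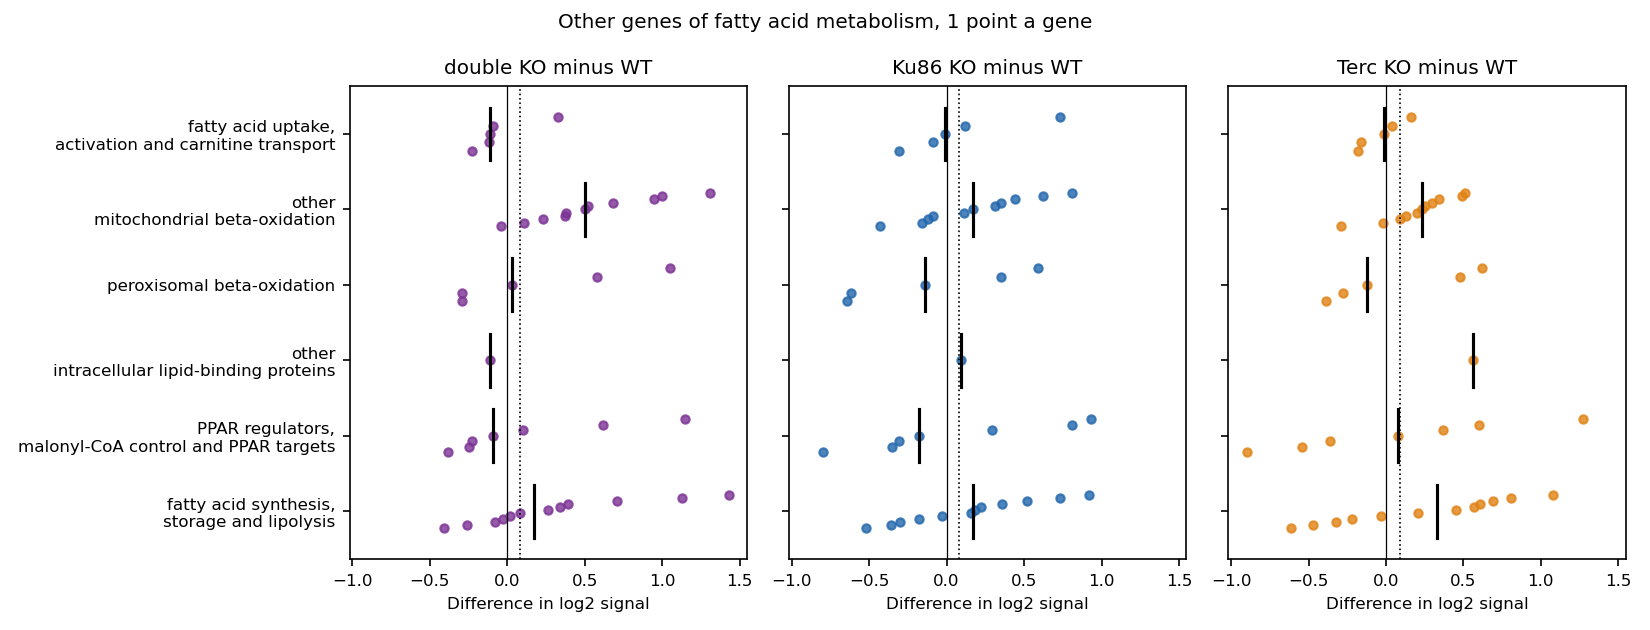
Difference from wild type in log2 signal for the other genes of fatty acid metabolism, 1 point for each gene, in 6 lists and 3 genotypes. Thick bars are list medians and the dotted line is the median of all 5530 genes; in the double knockout the other mitochondrial beta-oxidation genes lie mostly to the right of 0, with a median of 0.50.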

How the data were processed

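Testis RNA of 4 genotypes was measured on 8 Affymetrix arrays, 2 per genotype, grouped by their labels. The authors deposited 1 linear intensity per probe set and array, and these values were used. From the values, the mean without the top and bottom 2% lay between 200.0 and 200.2 on every array, so each array had been scaled. The scaling software, not given in the sources used here, cannot be named. Values were kept at this scale, set to a floor at the pooled 20th percentile (11.8) and taken to log2. Of 12488 probe sets, 66 controls and 5140 with a mean log2 signal under the pooled 40th percentile (38.1) were left out, and 7282 were tested. Probe sets were named from the platform annotation: 10855 had 1 symbol, 396 several and 1237 none. No genome was used, and coordinates are those of the RefSeq promoter table.

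Linear models with 1 mean per genotype were fitted to all 8 arrays with limma 3.58.1 in R 4.3.3 (lmFit, eBayes with a trend). P-values were two-sided, adjusted by Benjamini-Hochberg over all probe sets of a contrast and called under 0.05. The script was tested on simulated data. The members, gene lists and tests were chosen with earlier results of these data known. Named genes were all probe sets of the 9 symbols, Xrcc5, the 5 probe sets most correlated with Cpt1a, Fabp5 and Fabp9, called genes and the 2 highest and 2 lowest of each pathway list in the double knockout against wild type, and the leading markers of cell type lists. The list of other mitochondrial genes and the rest used the brightest tested probe set of a gene. Bounds set a mean of floored values against the floor. Alternatives covered normalization, floor, filter, variance trend, arrays, experiment number, scan day, threshold and each array left out. Those for gene lists were added after the data had been seen.

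The labels number the experiments 1 and 2, and the differences between replicates 1 and 2 correlated between genotypes at 0.0126 to 0.254, so arrays of 1 number were not taken as pairs.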

Additional observations from a re-analysis of the deposited data

Results flagged for a closer look

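The first Fabp9 probe set, of the type marked _f_at, stood apart on 1 of the 4 arrays labelled Ku86(-/-). Double knockout replicate 1, an array of scan day 1, read 8278.5, and the other 3 read between 9025.6 and 9057.6. The gap to the nearest array was 0.961 of the whole range, past Dixon's 95% critical value for 4 values. Chance flags about 1 in 20 such groups, and the difference is small beside the signal. Wild type replicate 1, outside these 4 arrays, read lower still, at 8054.0. Double knockout replicate 1 also held the lowest Fabp5 signal of the series, 34.4.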

How the results depend on the processing

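Counts of called probe sets over the whole array were small and moved with the setting, and the cause was not tested. For the double knockout against wild type, 2 as reported, the count was 0 after quantile normalization, with no variance trend, with the replicate block (experiment number) and with scan day as a block, 1 after median centring and with no filter, 8 with only the genotypes compared, 30 within scan day 2 alone, and 0 to 4 without 1 array. For the Ku86 knockout, 3 as reported, it was 1 after median centring, 15 within scan day 2, 0 to 3 without 1 array, and 0 after quantile normalization, with an offset for the floor, with no variance trend, with the replicate block and with scan day as a block. For the Terc knockout, 2 as reported, it was 1 after median centring and with scan day as a block, 9 with no filter, 17 within scan day 2, 0 to 4 without 1 array, and 0 after quantile normalization, with a floor at percentile 5, with a filter at percentile 60, with no variance trend and with the replicate block.

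The double knockout against the Ku86 knockout, 0 as reported, gave 4 with no filter, 13 within scan day 2 and 0 to 2 without 1 array. Against the Terc knockout, also 0, it gave 10, 9 and 0 to 2, and 1 with only the genotypes compared. Ku86 against Terc knockout, 1 as reported, gave 3 with a floor at percentile 40, 11 with no filter, 12 within scan day 2, 0 to 2 without 1 array, and 0 after quantile normalization, with no variance trend, with only the genotypes compared, with the replicate block and with scan day as a block. The interaction, 0 as reported, gave 8 with no filter, 9 within scan day 2 and 0 to 1 without 1 array. The averaged Ku86 effect, 0 as reported, gave 2 with no filter, 20 within scan day 2, 0 to 1 without 1 array, and 1 with a floor at percentile 40, an offset, the filter at the 60th percentile or a threshold of 0.10. The averaged Terc effect, 1 as reported, gave 4 with no filter, 8 within scan day 2, 0 to 3 without 1 array, and 0 with no variance trend and with scan day as a block. Scan day 2 alone holds 5 arrays for 4 genotypes, so its spread comes from 1 pair, the Terc knockout arrays.

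Among the fatty acid genes, 0 of 6 probe sets were called in every contrast and setting, except that the count was 1 against the Ku86 and against the Terc knockout without double knockout replicate 2. That 1 is Fabp5, with the double knockout cut to its low array of 34.4; the gene was chosen for that signal, so this is no test and nothing is read from it. Of 1107 values under 21 alternatives, 1044 moved by less than 1 SD between replicates and 63 by more, and 70 changed sign, 6 of them from a size over 0.5. Besides the Cpt1a values given above, the averaged Terc effect on Fabp5, -0.61, was 0.18 without double knockout replicate 1. Cpt1a was not tested with the filter at the 60th percentile. Signal near background limits Acadl, Acadm, Acadvl and wild type Cpt1a, whose differences depend on the floor.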

Other observations

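Fabp9 lies in a row of binding protein genes on mouse chromosome 3, in the order Fabp5, Gm33365, Gm9833, Pmp2, Fabp9, Fabp4 and Fabp12. Signals of 3 of these genes were read. Fabp4 read 5.3 and 10 in the double knockout, 13.5 and 40.3 in the Ku86 knockout, 5.6 and 10 in the Terc knockout, and 29.1 and 23.0 in wild type. Both wild type arrays were over both double knockout arrays, which lay under the floor. The correlation of Fabp5 with the first Fabp9 probe set was 0.63 and with the second 0.03 over the 8 arrays.

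The probe sets most like the first Fabp9 probe set were Fdps (r = 0.965), an enzyme of isoprenoid synthesis, Rfc4 (0.951), a clamp loader subunit, Sec23ip (0.95), of vesicle export, Vamp3 (0.928), a vesicle fusion protein, and Serf2 (0.925). Without wild type replicate 1 they held ranks 7, 11, 23, 5 and 21 of 6531, without double knockout replicate 1 ranks 4, 8, 9, 31 and 3, and by Spearman correlation Fdps was rank 108. Fdps read 718.9 and 970.3 in the double knockout, 849.2 and 853.0 in the Ku86 knockout, 1093.1 and 930.5 in the Terc knockout, and 619.6 and 1221.0 in wild type. Wild type spanned all other arrays, and both Ku86 knockout arrays lay under both Terc knockout arrays.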
